A study of Mus musculus with 9 samples.

Results

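Genes for chromatin regulators gave 183 of the 5281 circRNAs in the count table of the E14.5 mouse cortex. They were chosen by gene name from a list of 59 chromatin regulator genes, and every circRNA assigned to a listed gene was taken, whatever its expression. The parental gene was the one named in the study's list of circRNAs for 44 of the 183, and the gene on the same strand that contains the circRNA in GENCODE vM1 on mm9 for the other 139. Of the 59 genes, 46 had at least 1 circRNA and 13 had none in the table used here (Baz1a, Bcor, Chd3, Chd4, Chd8, Hdac4, Hdac9, Phf20, Setd5, Smarca2, Tet1, Tet2 and Trrap). By the known role of their proteins the circRNAs fell into 62 of 17 genes for nucleosome remodelers, 67 of 12 genes for histone writers, 28 of 11 genes for histone erasers and corepressors, 7 of 3 genes for DNA methylation, and 19 of 3 other genes.

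The cells came from the lateral cortex of C57BL/6 embryos of a line with 2 reporters, RFP driven by the Btg2 promoter and GFP by the Tubb3 promoter, and their mothers were heterozygous for both. Proliferative progenitors (PP, without either reporter), differentiative progenitors (DP, with RFP only) and newborn neurons (N, with GFP, whether or not RFP was present) were sorted from this line at the same age, E14.5, in 3 replicates each. Total RNA of all 9 libraries was treated with RNase R, an exonuclease that digests linear RNA. Sorting by absence of both reporters leaves PP as a gate defined by what the cells lack, and how many embryos went into a replicate is not given in the sources used here. In sorted populations, fewer cells that make a circRNA and less of it per cell cannot be told apart.

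A circRNA forms when a splice donor is joined to an acceptor upstream of it, which leaves a closed ring of exons without cap or poly(A) tail. Chromatin regulators set which genes can be read: remodelers slide or evict nucleosomes with the energy of ATP, writers and erasers add and remove methyl and acetyl groups on histone tails, and DNA methyltransferases and TET enzymes act on cytosine. Several are known from neurodevelopmental disorders, among them CHD7 of CHARGE syndrome, and PRC2, the complex of EZH2 and SUZ12 that methylates histone H3, is known for timing neurogenesis in the cortex. Whether the rings of these genes have functions of their own is not addressed by counts.

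The backsplice junctions of 12 of these circRNAs are shown to identify the rings. The counts compared below are not counts of reads across these junctions. Each is given 5′ to 3′ from mm9, with the last 20 bases of the last exon in lower case and the first 20 bases of the first exon in capitals, so that the change of case marks the join. Exons are numbered in GENCODE vM1.
Chd7 exons 2–8, chr4:8678471-8749638, plus strand: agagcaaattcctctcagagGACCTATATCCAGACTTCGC
Chd2 exons 17–26, chr7:80613342-80629483, minus strand: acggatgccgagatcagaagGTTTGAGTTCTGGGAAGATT
Baz1b exons 4–6, chr5:135680860-135686808, plus strand: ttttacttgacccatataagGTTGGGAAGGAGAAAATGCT
Baz2b exons 8–14, chr2:59780819-59800687, minus strand: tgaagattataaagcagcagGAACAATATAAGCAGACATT
Smarca4 exons 14–22, chr9:21460071-21475014, plus strand: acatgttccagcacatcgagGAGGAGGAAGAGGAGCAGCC
Ezh2 exons 2–3, chr6:47526535-47527666, minus strand: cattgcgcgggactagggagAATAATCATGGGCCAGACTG
Suz12 exons 12–13, chr11:79838670-79839456, plus strand: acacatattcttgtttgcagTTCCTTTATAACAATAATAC
Jarid2 exons 3–5, chr13:44943649-44980249, plus strand: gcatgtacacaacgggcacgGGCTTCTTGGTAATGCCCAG
Kdm5b exons 20–23, chr1:136516137-136521773, plus strand: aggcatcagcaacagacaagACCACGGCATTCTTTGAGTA
Dnmt3a exons 2–6, chr12:3835027-3873428, plus strand: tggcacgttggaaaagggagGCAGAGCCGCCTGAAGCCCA
Tet3 exons 3–4, chr6:83335979-83354818, minus strand: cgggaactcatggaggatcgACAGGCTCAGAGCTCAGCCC
Rere exons 5–7, chr4:149842804-149851577, plus strand: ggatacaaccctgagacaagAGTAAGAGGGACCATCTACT

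All 183 circRNAs had AG before their first base and GT after their last base in the genome, as had 5278 of the 5281 circRNAs of the table. Both ends lay on annotated exon ends of the parental gene for 179 of the 183 (97.8%, against 96.1% of all circRNAs). The capitals of the Ezh2 junction hold the start codon of the protein, since exon 2 is the first coding exon. A start codon was present in 31 of the 179 (17.3%, against 14.2% of all circRNAs with annotated ends), exon 2 was the first exon in 43 (24.0%, against 28.7%), and 145 consisted of coding bases alone (81.0%, against 81.4%). The median ring had 3 exons, as among all circRNAs, and the median counted length was 546 bases against 467. These shares are given without a test.

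Most of the listed genes with a circRNA gave 2 or more alternative rings. The 46 genes had 3.98 circRNAs on average (median 3), where all 2757 parental genes had 1.89 (median 1), and 15 of the 46 (32.6%) had 5 or more, against 5.80% of all genes. The list was chosen with earlier results known, and 94 other chromatin genes with circRNAs had 2.22 on average (median 2), with 8.51% at 5 or more. Ehmt1, which encodes a histone H3 methyltransferase, had 14, Ezh2 had 12, Rere, a nuclear receptor coregulator of the atrophin family, had 11, and Ash1l, another histone methyltransferase, had 10. At the other end 8 genes had a single circRNA, among them Arid2, Chd1, Ino80 and Kdm6a.

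**Figure D1:**
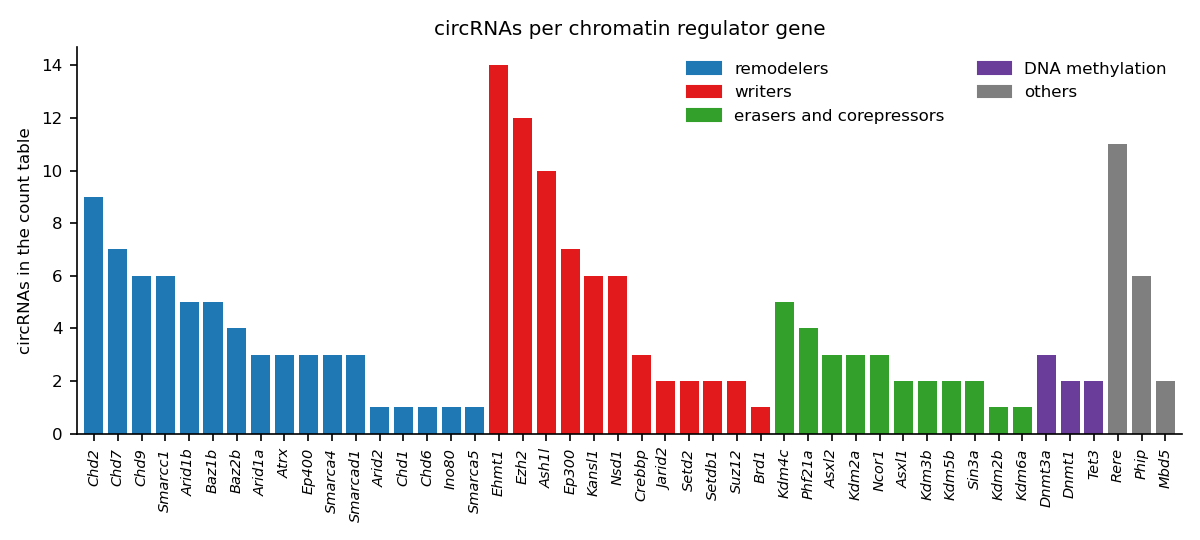
The number of circRNAs in the count table (y axis) is shown for each of the 46 chromatin regulator genes with at least 1 (x axis), as bars coloured by class. Ehmt1, Ezh2, Rere and Ash1l have 14, 12, 11 and 10, and 8 genes have 1.

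These alternatives were not measured apart from each other. Where the exons of one ring lay within those of another ring of the same gene, neither with a counted intron, the inner ring never had more counts than the outer one, in all 801 values of 89 such pairs of 26 genes over the 9 libraries. The Chd7 ring of exons 2–8 shows how the counts add up. In DP replicate 1 it had 359 counts, the ring of exons 2–3 had 303 and the ring of exons 4–8 had 65, and over the 9 libraries the sum of both parts was between 100% and 105% of the whole. The deposited counts thus hold all reads on the bases of a ring, not those across its junction alone. Any linear RNA of these exons that withstood RNase R would be counted too, and the counts cannot tell it apart. The paper reports that RNase R brought the linear transcripts it tested to undetectable levels. Rings that share exons also share reads. Counts of called circRNAs below are therefore given with the number of genes behind them.

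The counts of some rings also held reads from introns. The counted length that the table gives was the sum of the exons, with 1 base more per exon, for 141 of the 183. It matched the exons together with whole introns exactly for 35 of the 183, of 16 genes, which is 19.9% of the 176 that could be resolved, against 10.4% of all circRNAs. Of the 14 Ehmt1 rings, 7 held intron 5, of 360 bases, and 7 of the 12 Ezh2 rings held intron 2, of 879 bases. The extreme was the Jarid2 ring of exons 3–5, which had 489 exonic bases and 26352 counted bases, because the 25861 bases of intron 3 were counted with it. The paper cloned selected circRNAs, also some with predicted introns, and detected no intron in them. It proposes that intronic reads may come from lariats, and left introns out of its later analyses. Whether the introns counted here are part of the rings, of precursors or of other RNA that withstood RNase R was not tested.

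The depth behind these values was uneven. Libraries had between 2962787 and 8015311 counts, of which 94.7% to 98.2% lay in 27 entries, at Cdk8 and in a cluster on chromosome 17, 0 of which belonged to the listed genes. Rings of chromatin regulator genes had between 5316 counts (PP replicate 3) and 17689 counts (DP replicate 1) per library, and a median between 12 and 60 counts each. A floor of 3 counts corresponded to between 0.340 and 1.39 CPM, the count scaled by the library size after TMM. PP replicate 3 and N replicate 1 had the fewest counts on these rings in their cell types, and ordered the rings least like their replicates: the mean Spearman's rho across the 176 tested rings was 0.756 for PP replicate 3, against 0.845 and 0.857 for the other PP replicates, and 0.830 for N replicate 1 against 0.868 and 0.903. Rings with a counted intron took 52.7% of the CPM of all 183 in PP replicate 3 and 48.8% in N replicate 1, and between 30.7% and 39.2% in the other 7 libraries. Most of this CPM in N replicate 1 lay in the Jarid2 ring with intron 3. There, 2 of 35 tested rings with an intron stood above 2 times the mean of the other N libraries, and 6 below 0.5 times. In PP replicate 3, against the other PP libraries, these were 19 and 1. The 7 libraries without PP replicate 3 and N replicate 1 are called the reduced set, and values from it are given beside many of the results that change with it. This set was chosen after the data were seen. Leaving out the libraries least like their replicates narrows the spread by itself, so more calls and smaller p-values follow from the choice. Its p-values are given as description and not as independent support. Rings of 7 PP marker genes such as Ptprz1 and Notch2 summed to 409 to 514 CPM in PP and 65.6 to 83.6 CPM in N, and those of 7 N marker genes such as Myt1l and Dcc to 50.6 to 65.1 CPM in PP and 614 to 824 CPM in N. Rings of 2 DP marker genes, Elavl4 and Mfng, summed to 16.5 to 38.1 CPM in PP, 57.0 to 63.7 CPM in DP and 13.3 to 20.4 CPM in N. Of 10 interneuron genes Erbb4 alone had circRNAs, which summed to 0 to 2.32 CPM in PP, 0 to 0.248 CPM in DP and 3.43 to 6.75 CPM in N. For microglia, endothelial cells, mural or meningeal cells and erythroid cells no marker gene had a circRNA in the table, so that such cells could not be looked for.

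Of the 183 circRNAs, 176 of all 46 genes passed the filter on low counts, and 7 of Ash1l, Asxl1, Chd7, Kdm4c, Mbd5 and Ncor1 did not. None differed between DP and PP in edgeR's quasi-likelihood test with Benjamini-Hochberg adjustment over 4406 circRNAs (smallest adjusted p = 0.293), where 1.48% of all tested circRNAs were higher and 0.386% lower in DP. An unadjusted p under 0.05 was reached by 7, DESeq2 also called 0, and fold changes (FCs) were between -0.93 and 1.06 on the log2 scale. From DP to N, 13 rings of 6 genes were lower and 0 higher in N (7.39% and 0%, against 9.8% and 9.03% of all circRNAs tested), while 39 rings had an unadjusted p under 0.05 in either direction, and DESeq2 called 15 lower and 1 higher. From PP to N, 20 rings of 9 genes were lower (11.4%, against 14.4% of all) and 16 of 7 genes higher (9.09%, against 13.6% of all). Shares of called circRNAs were thus near those of the whole table or below them. Scaling by total counts in place of TMM moved the median log2 FC of all circRNAs from -0.10 to -0.37 (N against PP) and from -0.02 to -0.37 (N against DP). With that scaling 1 ring was called higher and 9 lower in N than in PP, and 0 higher and 6 lower in N than in DP. For DESeq2 and for scaling by total counts the share over all circRNAs is not given. Their counts are therefore not set against the whole table. Taken through the most abundant ring of each gene, 6 of 46 genes were higher and 6 lower in N than in PP, 13.04% each, against 14% and 14.8% of 2296 genes. From DP to N, 3 of 46 were lower (6.52%, against 9.8%) and 0 higher (against 9.97%), and from PP to DP there were 0 in either direction (against 1.57% higher and 0.566% lower).

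Calls are given by class beside the share of all tested circRNAs. Of 61 tested remodeler rings, 11 of 4 genes were lower in N than in DP (18.03%, against 9.8% of all) and 13 of 5 genes lower in N than in PP (21.3%, against 14.4% of all). Their median log2 FC was -0.37 from DP to N and -0.27 from PP to N, where that of all tested circRNAs was -0.02 and -0.10. Writers had 1 lower ring and 1 higher ring among 66 from PP to N (Suz12 and Jarid2) and a median log2 FC of -0.19. Among 24 rings of erasers and corepressors 4 were higher and 3 lower in N than in PP (16.7% and 12.5%, near the 13.6% and 14.4% of all), and among 7 of DNA methylation genes 2 were higher and 3 lower. The other class gave 7 higher rings, all of Rere. These counts rest on single genes with several overlapping rings, and no difference between classes was tested. Many rings described singly below were picked among called rings whose replicates did not overlap between the cell types compared. For these a lack of overlap follows from the choice and adds no support, and its share over all circRNAs is not given. For rings not picked this way a lack of overlap is description only, since that share is missing for them too.

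**Figure D2:**
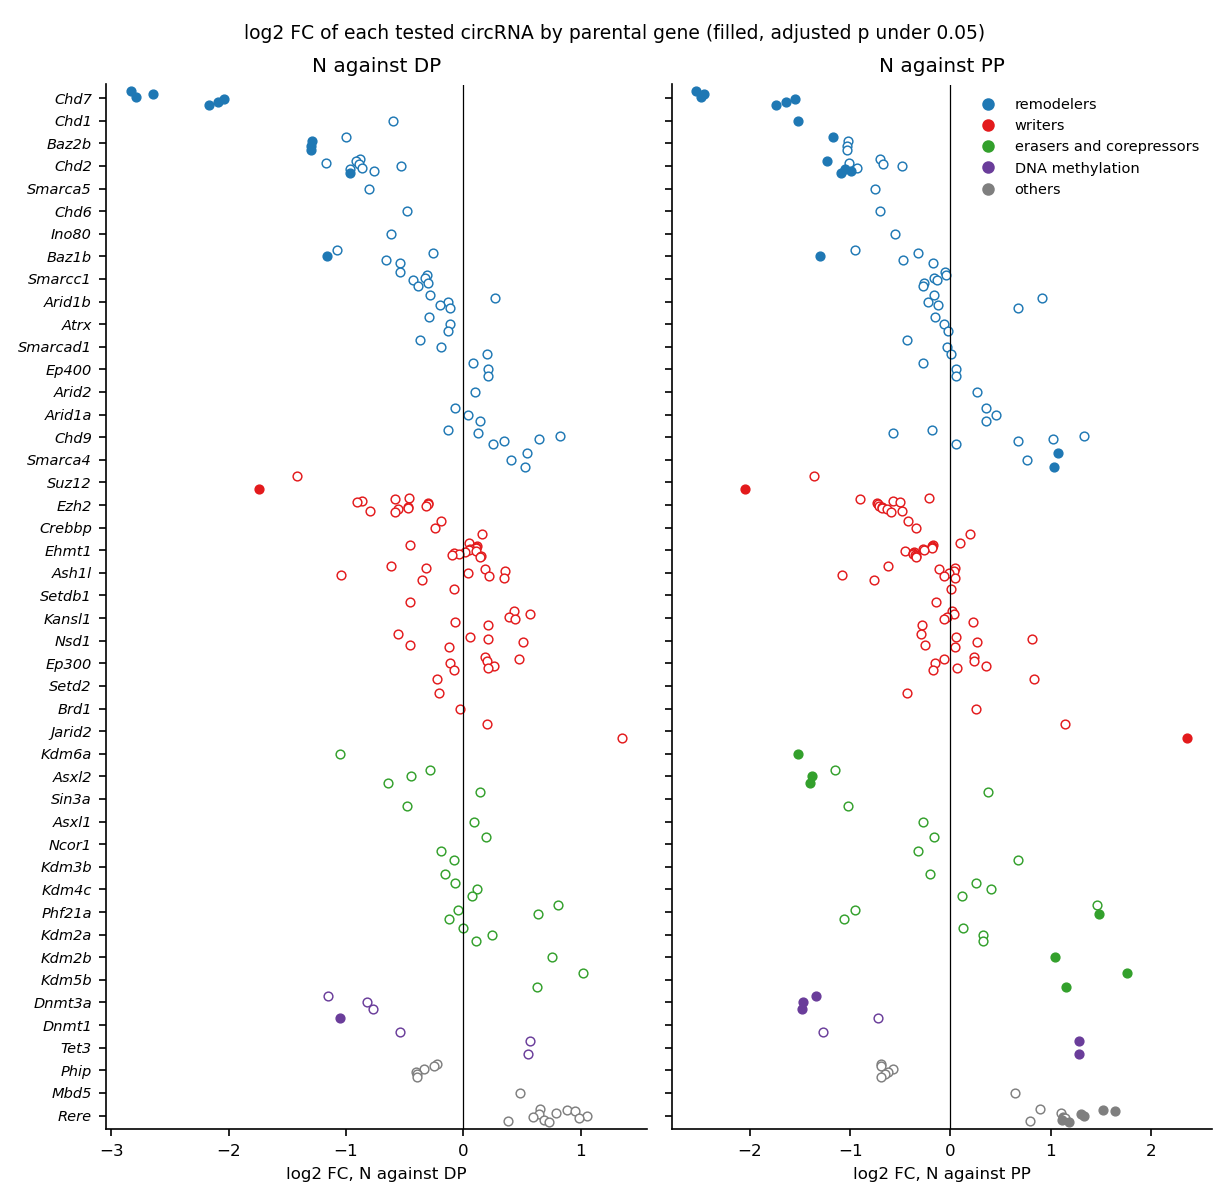
Each point is one of the 176 tested circRNAs, placed by its log2 FC (x axis) from DP to N (left) or PP to N (right) in the row of its parental gene (y axis), coloured by class and filled where the adjusted p was under 0.05. All 6 Chd7 rings lie left of -1.5 in both comparisons, Rere rings lie right of 0, and the Ehmt1 and Ep300 rings lie around 0.

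Chd7, a chromodomain helicase that remodels nucleosomes at enhancers, had the steepest fall of the list. All 6 tested rings were lower in N than in DP, with log2 FCs between -2.83 and -2.04, and lower in N than in PP, between -2.53 and -1.55. The largest ring, CiCo_mm9_circ_004698 of exons 2–8, is the one whose junction opens the list above. It stood at 34.0, 35.4 and 17.2 CPM in the PP libraries, at 40.7, 34.0 and 43.4 CPM in DP, and at 10.6, 5.47 and 10.6 CPM in N. No N library reached any progenitor library, and PP replicate 3 was the lowest of the progenitors. Its log2 FC was -2.17 ± 0.37 (SE, n = 3 and 3) from DP to N (edgeR, adjusted p = 0.000883) and -1.74 ± 0.37 from PP to N (edgeR, adjusted p = 0.0029). Between PP and DP it differed by 0.43 ± 0.35 (edgeR, adjusted p = 0.723).

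Within Chd7 the fall held for rings that share no base. CiCo_mm9_circ_004696 is exon 2 alone, of 1825 bases with the start codon, and had 23.9, 22.8 and 13.01 CPM in PP, 29.7, 24.7 and 30.3 CPM in DP, and 8.42, 4.19 and 8.49 CPM in N. CiCo_mm9_circ_004700 of exons 5–7 had 3.90, 5.50 and 3.25 CPM in PP, 4.87, 4.69 and 5.47 CPM in DP, and 1.33, 0.698 and 0.653 CPM in N, the last from 3, 6 and 4 counts. Its log2 FC from PP to N of -2.45 ± 0.42 had the smallest adjusted p of the list in that comparison (edgeR, adjusted p = 0.000538). CiCo_mm9_circ_004699 of exons 4–8, which contains it, fell by 2.79 on the log2 scale from DP to N, and this call held under all 17 alternative settings, with log2 FCs between -3.16 and -2.58. The single-exon ring CiCo_mm9_circ_004702, exon 17, had 0 to 4 counts in the N libraries and lay between 2.34 and 4.10 CPM in DP. The ring of exons 5–7 lies at chr4:8732298-8738642 on the plus strand and its 260 bases are shown whole because it is the smallest of the nested rings, with exon 6 (66 bases) in capitals between exon 5 (138 bases) and exon 7 (56 bases).
Chd7 exons 5–7: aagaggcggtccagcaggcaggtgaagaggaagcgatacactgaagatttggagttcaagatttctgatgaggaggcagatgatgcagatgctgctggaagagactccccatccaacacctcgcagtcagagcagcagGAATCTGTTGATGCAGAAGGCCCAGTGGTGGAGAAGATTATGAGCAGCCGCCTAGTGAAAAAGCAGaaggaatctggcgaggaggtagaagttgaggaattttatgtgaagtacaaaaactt

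Other members of the CHD family gave 5 called rings from PP to N. Chd2, another chromodomain helicase, had log2 FCs between -1.23 and -0.48 from PP to N for its 9 rings, 4 of which were called lower. CiCo_mm9_circ_005977 of exons 17–26 had 18.2, 20.7 and 30.2 CPM in PP, 18.6, 20.5 and 24.0 CPM in DP, and 13.3, 8.03 and 11.4 CPM in N. N was below both progenitors without overlap, and the log2 FC was -1.09 ± 0.32 from PP to N (edgeR, adjusted p = 0.0206) and -0.97 ± 0.32 from DP to N (edgeR, adjusted p = 0.0464). Its 3913 counted bases include 3 introns, and the call from DP to N was kept in 8 of 18 alternatives. The ring of Chd1 exons 16–17, of 2 to 19 counts per library, fell by 1.52 on the log2 scale from PP to N (edgeR, adjusted p = 0.0294). The 6 Chd9 rings had log2 FCs between -0.57 and 1.33 and the ring of Chd6 one of -0.70 from PP to N, and no call was made (edgeR, smallest adjusted p = 0.095). In the reduced set the Chd6 ring was lower in N than in PP (-0.87 ± 0.24, edgeR, adjusted p = 0.00412), and Chd9 rings of exons 9–13 and 12–13 were higher (0.92 and 1.47, edgeR, adjusted p = 0.0499 and 0.0258), while 1 of the 4 called Chd2 rings, CiCo_mm9_circ_005984, was lost (edgeR, adjusted p = 0.0799) and 2 others were newly called.

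Of the 3 listed genes of the BAZ family of bromodomain proteins, which pair with remodeling ATPases, Baz1b and Baz2b had circRNAs, and both gave rings that were lower in N. Baz1b, the partner of the ATPase SMARCA5 in the WICH complex, gave CiCo_mm9_circ_004927 of exons 4–6, with 8.31, 15.4 and 7.44 CPM in PP, 10.4, 9.75 and 8.82 CPM in DP, and 2.22, 5.93 and 3.92 CPM in N. The highest N library was below the lowest progenitor library, and the log2 FC was -1.16 ± 0.37 from DP to N (edgeR, adjusted p = 0.0424) and -1.302 ± 0.38 from PP to N (edgeR, adjusted p = 0.0191). A second Baz1b ring, of exons 8–15, had 24.6, 25.4 and 22.9 CPM in DP and 23.05, 13.03 and 15.03 CPM in N, and was not called (log2 FC -0.54 ± 0.32, edgeR, adjusted p = 0.314). In the reduced set it was at -0.80 ± 0.18 (edgeR, adjusted p = 0.000507), and all 5 Baz1b rings were called lower in N than in DP and in PP. Baz2b gave 3 nested rings from exon 8 on, all lower in N than in DP. That of exons 8–14, CiCo_mm9_circ_003816, had 12.3, 10.2 and 12.9 CPM in DP against 2.66, 5.70 and 5.23 CPM in N, a log2 FC of -1.301 ± 0.38 (edgeR, adjusted p = 0.0271). In PP it had 11.9, 12.1 and 4.18 CPM, so that PP replicate 3 lay within the N libraries, and in the reduced set the 3 rings were lower in N than in PP as well (-1.11 to -1.07). The ring of exons 2–3, CiCo_mm9_circ_003818, which shares no exon with them, was lower in N than in PP, at -1.17 ± 0.41 (edgeR, adjusted p = 0.0458). The calls of Baz1b and Baz2b from DP to N were kept in 11 and 12 of 17 alternatives.

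Smarca4, the BRG1 ATPase of the BAF complex, was with all libraries the remodeler gene with rings called higher. CiCo_mm9_circ_006532 of exons 14–22 had 29.3, 27.5 and 12.5 CPM in PP, 34.5, 33.3 and 31.9 CPM in DP, and 51.0, 43.2 and 50.1 CPM in N. The cell types did not overlap in the order PP, DP, N. The log2 FC from PP to N was 1.04 ± 0.33 (edgeR, adjusted p = 0.0294), and the steps from PP to DP (0.51 ± 0.33) and from DP to N (0.53 ± 0.32) were not called. Its inner ring CiCo_mm9_circ_006531 of exons 14–16 was among the 5 with the highest level per length, at 39.7 CPM per kilobase (RPKM), and rose by 1.07 ± 0.34 (edgeR, adjusted p = 0.0313), a call kept in 10 of 18 alternatives. The third, of exons 7–9 with intron 7, had a log2 FC of 0.76 ± 0.28 (edgeR, adjusted p = 0.0565). Subunits of the same complex were not called with all libraries: Arid1a rings had log2 FCs between 0.35 and 0.45, Arid1b rings between -0.22 and 0.91 and Smarcc1 rings between -0.27 and -0.04 from PP to N. The 3 Arid1a rings were called in the reduced set higher in N than in PP, at 0.55 to 0.64 (edgeR, adjusted p = 0.025, 0.0128 and 0.0114), as was the third Smarca4 ring (0.65 ± 0.20, edgeR, adjusted p = 0.00851). Both Smarca4 rings from exon 14 on were then also called higher in N than in DP, at 0.54 and 0.48. Ep400, an ATPase of the TIP60 complex, then had its rings of exon 2 and exons 2–3 higher in N than in PP (0.67 and 0.64) and in DP than in PP (0.68 and 0.66), where both had been at -0.16 from PP to DP with all libraries. Both Arid1a rings of exons 2–3 and 2–4, which hold the start codon as annotated, were among the 5 highest, with 34.1 and 33.4 RPKM.

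**Figure D3:**
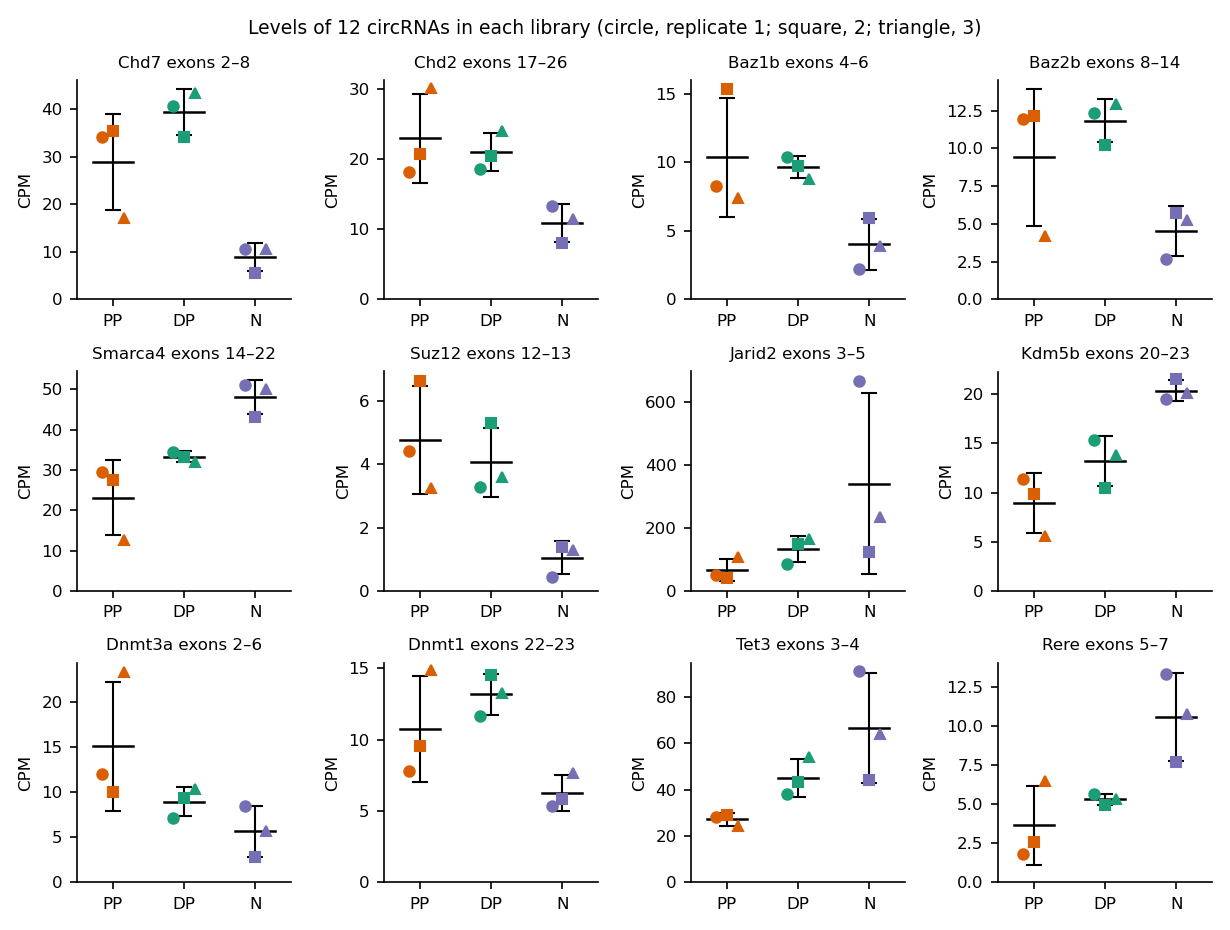
CPM (y axis, from 0) is plotted for 12 circRNAs in each of 3 PP, 3 DP and 3 N libraries, with symbols for the replicate, a line at the mean and bars of 1 SD. Chd7, Suz12, Baz1b and Baz2b are lowest in N, Smarca4, Kdm5b, Tet3 and Rere are highest in N, and the N mean of Jarid2 rests on replicate 1 at 667 CPM.

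Genes of PRC2 subunits differed in their rings. Suz12, a core subunit of the complex, gave 2 rings. CiCo_mm9_circ_001106 of exons 12–13 had 4.42, 6.63 and 3.25 CPM in PP, 3.28, 5.30 and 3.602 CPM in DP, and 0.443, 1.40 and 1.31 CPM in N, the last from 1, 12 and 8 counts. All N libraries were below all progenitor libraries, with a log2 FC of -2.05 ± 0.43 from PP to N (edgeR, adjusted p = 0.00268), called in all 17 alternatives, and -1.74 ± 0.42 from DP to N (edgeR, adjusted p = 0.00876). CiCo_mm9_circ_001105 of exons 9–10, which shares no exon with it, had 5.97, 4.205 and 3.25 CPM in PP, 4.64, 5.06 and 4.60 CPM in DP, and 0, 2.91 and 1.31 CPM in N. Its log2 FCs of -1.42 ± 0.48 from DP to N (edgeR, adjusted p = 0.0537) and -1.36 ± 0.51 from PP to N (edgeR, adjusted p = 0.063) did not pass the threshold. Both did in the reduced set, at -1.10 ± 0.31 (edgeR, adjusted p = 0.00472) and -1.13 ± 0.36 (edgeR, adjusted p = 0.0106).

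Jarid2, an accessory subunit that recruits PRC2, gave the largest increase of the list from PP to N. CiCo_mm9_circ_001619 of exons 3–5 had 49.3, 42.4 and 108 CPM in PP, 85.2, 149 and 166 CPM in DP, and 667, 123 and 236 CPM in N. All N libraries were above all PP libraries, and N replicate 2 was below 2 of the DP libraries. The log2 FC from PP to N was 2.36 ± 0.57 (edgeR, adjusted p = 0.00607). It ranged from 1.45 to 2.90 over 18 alternatives, all of them called, and was 1.99 ± 0.27 without PP replicate 3 and N replicate 1. As given above, 25861 of its 26352 counted bases are intron 3. CiCo_mm9_circ_001617 of exons 2–3, without an intron, had 0.809 to 2.79 CPM in PP, 1.97 to 2.86 CPM in DP and 2.22 to 3.49 CPM in N, a log2 FC of 1.14 ± 0.48 that was not called (edgeR, adjusted p = 0.0965). Without these 2 libraries it was 1.79 ± 0.49 (edgeR, adjusted p = 0.00319).

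Ezh2, the methyltransferase of PRC2, had rings whose direction turned with a single library. The study used its ring as a circular control of RNase R, with the divergent primers ttacacgcttccgccaac and aagcagcggaggatacagc, each given in lower case. Placed on the exonic rings from mm9, they gave a product across the junction in 7 of the 12 entries, of 131 bases in CiCo_mm9_circ_005478 (exons 2–3), 104 bases in CiCo_mm9_circ_005479 and 248 to 1721 bases in 5 longer rings. CiCo_mm9_circ_005478, whose junction is shown above, had 10.9, 10.8 and 77.2 CPM in PP, 23.7, 27.1 and 21.0 CPM in DP, and 19.9, 17.6 and 20.9 CPM in N. The third PP library was thus above all DP and N libraries, and the other PP libraries were below all of them. With all libraries its log2 FC was -0.42 ± 0.58 from PP to DP (edgeR, adjusted p = 0.863) and -0.72 ± 0.59 from PP to N (edgeR, adjusted p = 0.42). Without PP replicate 3 and N replicate 1 the sign turned, to 1.16 ± 0.20 (edgeR, adjusted p = 7.41e-05) and 0.84 ± 0.22 (edgeR, adjusted p = 0.00224).

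Rings of Ezh2 that start at exon 2 differed in PP replicate 3 from those that start at exons 4 or 5. All 7 rings that start at exon 2 hold the 879 bases of intron 2, CiCo_mm9_circ_005470 with the introns after exons 11, 13 and 14 besides. PP replicate 3 stood between 77.2 and 109 CPM in them, above PP replicates 1 and 2 at 10.7 to 48.3 CPM. The same 7 rings also hold exons 2 and 3, so intron 2 and these exons cannot be told apart here. In the 4 rings from exons 4 or 5 on, PP replicate 3 lay between 4.65 and 34.9 CPM, near the other PP libraries, for example at 17.7 CPM against 23.6 and 17.1 CPM in CiCo_mm9_circ_005471 of exons 4–10. That ring had 28.4, 24.3 and 24.8 CPM in DP and 7.09, 18.7 and 14.4 CPM in N, so that N lay below DP without overlap, at a log2 FC of -0.91 ± 0.34 that was not called (edgeR, adjusted p = 0.0832). Without the 2 libraries it was -0.63 ± 0.18 (edgeR, adjusted p = 0.00654). The last entry, CiCo_mm9_circ_005468, had no annotated ends and 0 to 12 counts per library. Over the 12 entries of Ezh2, log2 FCs with all libraries were between -0.91 and -0.30 from DP to N and between -0.90 and -0.22 from PP to N, and no call was made. Without the 2 libraries 5 rings were called lower in N than in DP (-0.63 to -0.46).

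**Figure D4:**
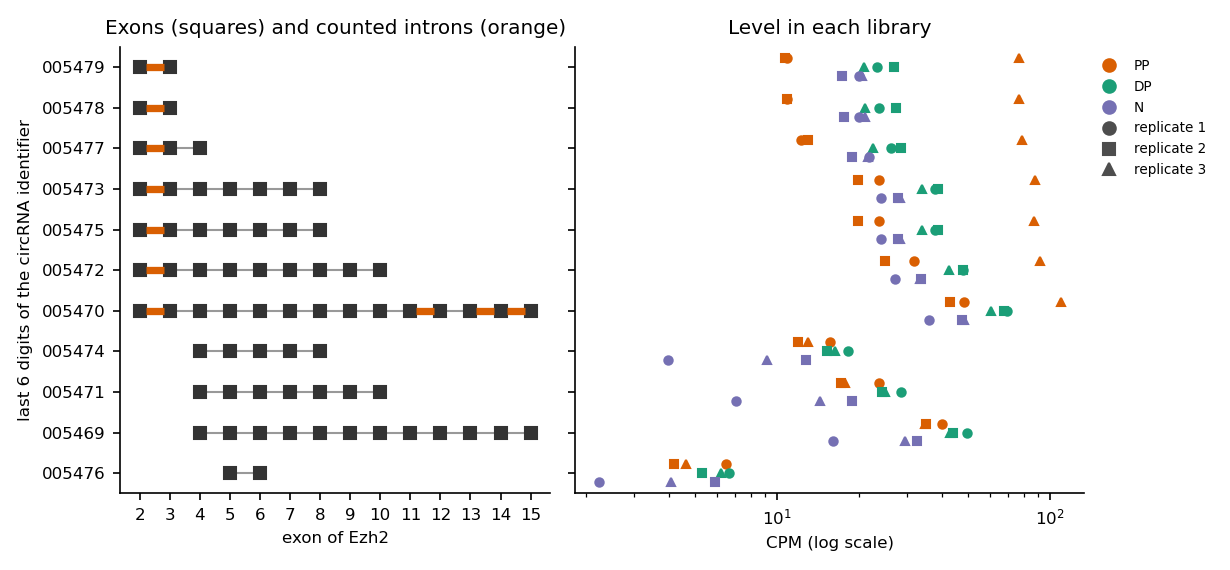
The left panel shows the exons of Ezh2 (x axis, squares) in 11 of its 12 circRNAs (rows) with counted introns in orange, and the right panel the CPM of each library on a log axis. PP replicate 3 (orange triangle) stands apart in the 7 rows that contain intron 2 and not in the 4 rows that start at exons 4 or 5; the introns of CiCo_mm9_circ_005469 could not be resolved and are not drawn.

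No ring of the other writer genes was called with all libraries. The 14 Ehmt1 rings had log2 FCs between -0.56 and 0.28 from PP to DP, between -0.46 and 0.15 from DP to N, and between -0.45 and 0.10 from PP to N. The 7 with intron 5 carried PP replicate 3 high, for example at 42.8 CPM against 19.2 and 16.2 CPM for CiCo_mm9_circ_003664 of exons 3–6, which had 14.6 to 20.9 CPM in DP and 16.4 to 26.1 CPM in N. The acetyltransferase genes Ep300 and Crebbp, with 7 and 3 rings, stayed between -0.42 and 0.36 from PP to N. The largest Ep300 ring, CiCo_mm9_circ_002160 of exons 2–12, had 16.4, 18.4 and 14.4 CPM in PP, 15.2, 14.4 and 16.6 CPM in DP, and 11.97, 14.2 and 17.3 CPM in N. These overlap throughout, and the log2 FC from PP to N of -0.17 ± 0.28 (edgeR, adjusted p = 0.695) was smaller than its error. Kansl1, a scaffold of the NSL acetyltransferase complex listed under an older symbol in the annotation, Nsd1, Setd2 and Setdb1 had smallest adjusted p-values of 0.164 and above from PP to N (edgeR). The 9 tested Ash1l rings had log2 FCs between -1.08 and 0.05 from PP to N (edgeR, smallest adjusted p = 0.0716), and the ring of Brd1, a scaffold of acetyltransferase complexes, had one of 0.26 ± 0.33 (edgeR, adjusted p = 0.618). With the reduced set edgeR called Kansl1 rings of exons 5–7 and 3–7 higher in N than in DP (log2 FC 0.61 and 0.55) and those of exons 3–6 and 3–4 higher in N than in PP (0.67 and 0.85). It then called a Setd2 ring of exons 10–16 lower in N than in PP (-0.65 ± 0.24, edgeR, adjusted p = 0.0289), and the ring of Ash1l exon 1 lower in N than in both (-0.80 from DP and -0.89 from PP).

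Erasers of histone marks went both ways. Kdm5b, a histone H3 demethylase, rose through 2 rings that share no exon. CiCo_mm9_circ_000072 of exons 20–23 had 11.4, 9.86 and 5.58 CPM in PP, 15.4, 10.5 and 13.8 CPM in DP, and 19.5, 21.5 and 20.1 CPM in N. N lay above both progenitors without overlap, with a log2 FC from PP to N of 1.15 ± 0.32 (edgeR, adjusted p = 0.0138). CiCo_mm9_circ_000071 of exons 17–18 with intron 17, of 120 bases, had 3.90, 4.04 and 0.930 CPM in PP and 13.7, 11.1 and 8.82 CPM in N, and rose by 1.76 ± 0.39 (edgeR, adjusted p = 0.00348), in 16 of 17 alternatives. From DP to N both missed the threshold (edgeR, adjusted p = 0.195 and 0.0552), and in the reduced set both passed it, at 0.65 ± 0.18 and 0.89 ± 0.21 (edgeR, adjusted p = 0.00472 and 0.000849). Kdm2b, a demethylase that also brings a Polycomb complex to CpG islands, had 5.71, 4.205 and 4.18 CPM in PP, 5.66, 4.56 and 7.08 CPM in DP, and 12.9, 7.68 and 9.47 CPM in N through its ring of exons 12–13, CiCo_mm9_circ_004848. It rose by 1.04 ± 0.34 from PP to N (edgeR, adjusted p = 0.0314), a call kept in 12 of 17 alternatives.

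Lower in N than in PP were the only ring of Kdm6a, another histone H3 demethylase, and 2 overlapping rings of Asxl2, a partner of the deubiquitinase BAP1. The Kdm6a ring of exons 3–6 had 4 to 17 counts per PP library and 1 to 7 per N library, with a log2 FC of -1.52 ± 0.50 (edgeR, adjusted p = 0.0343). The Asxl2 ring of exons 4–6 had 3.38, 3.88 and 3.72 CPM in PP against 3.102, 0.931 and 1.14 CPM in N, at -1.38 ± 0.45 (edgeR, adjusted p = 0.0335). PP and N did not overlap, and N replicate 1 lay just under the lowest PP library. Rings of Kdm2a, Kdm3b, Kdm4c, Asxl1, Ncor1 and Sin3a were not called with all libraries (edgeR, smallest adjusted p = 0.0821 from PP to N). The reduced set had a Sin3a ring of exons 3–4 lower in N than in PP (-0.999 ± 0.40, edgeR, adjusted p = 0.0424) and a Kdm3b ring of exons 2–6 higher (0.71 ± 0.27, edgeR, adjusted p = 0.0349).

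Phf21a, a subunit of the LSD1 corepressor complex, had the highest mean level per length of the list, which rested on 1 library that stood apart. CiCo_mm9_circ_003909 of exons 4–6, at 60.8 RPKM on average, had 5.19, 5.82 and 56.2 CPM in PP, 11.0, 11.8 and 11.1 CPM in DP, and 14.2, 7.45 and 11.9 CPM in N, and CiCo_mm9_circ_003908 of exons 2–6, at 43.6 RPKM, followed it. PP replicate 3 exceeded every other library here without any counted intron. Their means in the reduced set were 37.3 and 27.4 RPKM, and Smarca4 CiCo_mm9_circ_006531 was the highest at 41.4 RPKM. For CiCo_mm9_circ_003909 the log2 FC from PP to DP was -0.91 ± 0.68 with all libraries (edgeR, adjusted p = 0.687) and 1.04 ± 0.25 without PP replicate 3 and N replicate 1 (edgeR, adjusted p = 0.0029). At the other end of the gene, CiCo_mm9_circ_003910 of exons 13–15 had 2.34, 2.43 and 3.25 CPM in PP, 3.96, 5.06 and 4.97 CPM in DP, and 15.5, 3.26 and 5.55 CPM in N. Its call as higher in N than in PP (log2 FC 1.48 ± 0.52, edgeR, adjusted p = 0.0482) was kept in 5 of 17 alternatives, and without N replicate 1 it was lost.

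Rings of the DNA methylation genes were called in both directions. Tet3, which oxidizes methylcytosine, gave a ring of exon 3, which holds the annotated start codon, and one of exons 3–4 that contains it. CiCo_mm9_circ_005536 of exons 3–4 had 28.0, 29.3 and 24.2 CPM in PP, 37.9, 43.4 and 54.0 CPM in DP, and 91.3, 44.0 and 64.0 CPM in N. PP lay below both other cell types without overlap, DP and N overlapped, and the log2 FC from PP to N was 1.28 ± 0.33 (edgeR, adjusted p = 0.00919). Without PP replicate 3 and N replicate 1 it was 0.93 ± 0.21, and the step from PP to DP passed the threshold as well (0.67 ± 0.20, edgeR, adjusted p = 0.0177).

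Dnmt3a, the de novo methyltransferase, was lower in N than in PP in all 3 rings, with log2 FCs of -1.48 ± 0.43, -1.47 ± 0.43 and -1.34 ± 0.41 (edgeR, adjusted p = 0.0191, 0.0194 and 0.0245). CiCo_mm9_circ_001344 of exons 2–6 had 11.9, 10.03 and 23.2 CPM in PP, 7.13, 9.38 and 10.3 CPM in DP, and 8.42, 2.79 and 5.72 CPM in N. PP and N did not overlap, and DP overlapped both. CiCo_mm9_circ_001347 of exons 13–14, which shares no base with it, had 4.67, 3.23 and 6.51 CPM in PP and 2.66, 1.40 and 1.80 CPM in N. Dnmt1, the maintenance methyltransferase of dividing cells, gave CiCo_mm9_circ_006522 of exons 22–23, with 7.79, 9.54 and 14.9 CPM in PP, 11.7, 14.6 and 13.3 CPM in DP, and 5.32, 5.82 and 7.68 CPM in N. It was lower in N than in DP (log2 FC -1.05 ± 0.31, edgeR, adjusted p = 0.0306), in 12 of 18 alternatives. The other ring, CiCo_mm9_circ_006521 of exons 30–33, had 17.7, 15.7 and 52.1 CPM in PP and 18.2, 9.19 and 8.49 CPM in N, and missed the threshold (log2 FC -1.27 ± 0.47, edgeR, adjusted p = 0.0565). It was lower in the reduced set in N than in PP (-0.88 ± 0.23, edgeR, adjusted p = 0.00209) and than in DP (-0.91 ± 0.20, edgeR, adjusted p = 0.000446), and the 3 Dnmt3a rings were lower in N than in DP too (-1.34 to -1.09). All 5 rings of Dnmt1 and Dnmt3a hold 1 counted intron, of 121 to 403 bases, and neither ring of Tet3 does.

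All called rings of the other class came from Rere. Its 11 rings had log2 FCs between 0.79 and 1.65 from PP to N, 7 of them called, and between 0.38 and 1.05 from DP to N, none called (edgeR, smallest adjusted p = 0.096). Of the 11 rings, 9 were called in the reduced set higher in N than in DP, at 0.46 to 0.78, and 10 higher in N than in PP. CiCo_mm9_circ_004482, which is exon 2 alone with the start codon, had 6.23, 5.82 and 4.18 CPM in PP, 8.15, 8.14 and 9.81 CPM in DP, and 15.96, 12.2 and 13.2 CPM in N, at 1.301 ± 0.30 (edgeR, adjusted p = 0.00453). The cell types did not overlap. CiCo_mm9_circ_004491 of exons 5–7, which shares no exon with it, had 1.82, 2.59 and 6.51 CPM in PP, 5.66, 4.93 and 5.34 CPM in DP, and 13.3, 7.68 and 10.8 CPM in N, at 1.65 ± 0.42 (edgeR, adjusted p = 0.00887). None of the Rere rings with annotated ends held an intron. The tested Mbd5 ring had a log2 FC of 0.64 ± 0.54 from PP to N (edgeR, adjusted p = 0.43). Phip, a bromodomain protein, had 6 rings with log2 FCs between -0.69 and -0.57 from PP to N, none called (edgeR, smallest adjusted p = 0.185).

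Rings of one gene were not found to change apart from each other. Tested against the other circRNAs of their gene with diffSpliceDGE of edgeR, 0 of 166 circRNAs of chromatin regulator genes passed in any comparison, against 0%, 0.0326% and 0.0652% of 3068 tested circRNAs for DP against PP, N against DP and N against PP. An unadjusted p under 0.05 was reached by 0, 2 and 3. Since overlapping rings share reads, this test could see differences only in the bases that they do not share.

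Without PP replicate 3 and N replicate 1 more rings were called. Of 180 rings then tested, 36 were higher and 35 lower in N than in PP (20% and 19.4%, against 21.6% and 20.6% of all), and 34 of the 36 called with all libraries were among them. From DP to N, 16 were higher and 35 lower (8.89% and 19.4%, against 16.6% and 17.3% of all), including all 13 called before. From PP to DP, 25 rings of 7 genes were higher and 0 lower (13.9% and 0%, against 9.08% and 4.9% of all). They belonged to Rere (8 rings), Ezh2 (7), Phf21a (3), Ep400, Jarid2 and Tet3 (2 each) and Kdm3b (1), with log2 FCs between 0.56 and 1.57. PP then has 2 libraries, and its spread is estimated together with that of the other groups. The ratio of PP replicate 3 to the mean of the other PP libraries was above 2 for 19 of the 35 tested rings with a counted intron and for 18 of 136 without one, and below 0.5 for 1 and 34.

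**Figure D5:**
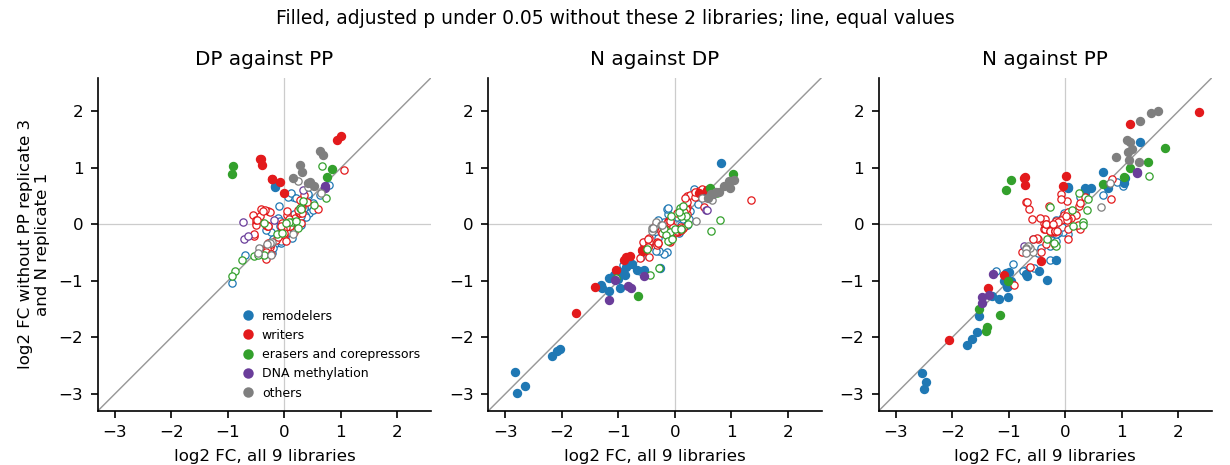
The log2 FC of each circRNA with all 9 libraries (x axis) is set against that without PP replicate 3 and N replicate 1 (y axis) for the 3 comparisons, coloured by class and filled where the adjusted p was under 0.05 in the second fit. In DP against PP 25 points are filled, all above 0, and the 7 rings of Ezh2 with intron 2, 2 rings of Phf21a and 2 of Ep400 lie left of 0 with all libraries and above 0 without these 2.

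Counts are also given for other chromatin genes. Of 225 further chromatin genes chosen by known function, 94 had 209 circRNAs in the table, of which 195 of 90 genes were tested. From PP to N 9 were higher and 12 lower (4.62% and 6.15%), from DP to N 7 and 9 (3.59% and 4.62%), and from PP to DP 1 and 0, each below the shares of the whole table given above. Their median log2 FC was -0.17 from PP to N.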

How the data were processed

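RNase R-treated RNA of 3 PP, 3 DP and 3 N libraries was sequenced. The authors aligned reads to mm9, predicted circRNAs from head-to-tail junctions, and deposited counts per circRNA, summed over its expressed exons and introns with featureCounts; the submitters' processing notes name Subread 1.6.0 and bcl2fastq 1.8.4. Counts were used as deposited, in 1 edgeR 4.0.16 quasi-likelihood model (R 4.3.3) over the 9 libraries with cell type as the only term, after filterByExpr and TMM, with adjusted p under 0.05 over all tested circRNAs as the call. CPM used TMM library sizes, and RPKM divided CPM by counted length. DESeq2 1.42.0, other scalings, filters, blocks and left-out libraries were alternatives, and the fit was tested on simulated counts. Genes, junctions and rings were read from GENCODE vM1 and NCBIM37 (mm9).

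The members and lists were chosen with earlier results of these data known. Circles were named by rule: per comparison and direction up to 8 called circRNAs with the largest log2 FC, above the median level, without overlap and 1 per gene; the 5 highest by RPKM; and all of Ezh2, Suz12, Jarid2 and the DNA methylation genes. Others were chosen after their values were seen.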

Additional observations from a re-analysis of the deposited data

How the results depend on the processing

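Calls depended on which libraries and scaling were used. Leaving out PP replicate 3 and N replicate 1 together gave 25 circRNAs higher in DP than in PP, 16 higher and 35 lower in N than in DP, and 36 higher and 35 lower in N than in PP. Scaling by total counts gave 6 lower in N than in DP, and 1 higher and 9 lower in N than in PP. A minimum of 10 counts in every library gave 5 lower in N than in DP, and 7 higher and 9 lower in N than in PP, with fewer circRNAs tested. A test against a fold change of 1.5 gave 7, 6 and 7 in the same order, and fits of the 2 cell types alone gave 5 higher in N than in DP, and 6 higher and 8 lower in N than in PP. RLE scaling and DESeq2 each gave 1 higher in N than in DP, and DESeq2 13 lower in N than in PP. Through 1 circRNA per gene, DESeq2 gave 3 genes lower in N than in PP. For these other scalings, filters and tests the share over all circRNAs is not given here, so the counts are not set against the whole table. Of the 5 circRNAs highest by RPKM, 0 were among the 5 highest by CPM. Without PP replicate 3 and N replicate 1, a choice made after seeing the data, 4 of them were still among the 5 highest by RPKM. Restricting the list to circRNAs without a counted intron, chosen after seeing the data, left 136 tested. Of these, 11 were lower in N than in DP (8.09%, against 9.8% of all tested circRNAs) and 0 higher (against 9.03%). From PP to N, 14 were higher and 15 lower (10.3% and 11.0%, against 13.6% and 14.4% of all).

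Leaving out 1 library at a time gave 0 to 3 higher and 0 lower in DP than in PP, 0 to 10 higher and 7 to 25 lower in N than in DP, and 8 to 27 higher and 9 to 29 lower in N than in PP; through 1 circRNA per gene these ranges were 0 and 0, 0 to 2 and 1 to 5, and 4 to 7 and 2 to 10, and the test within genes gave 0 throughout. The highest counts from DP to N (10 and 25), of DP over PP (3) and of N over PP (27) came without PP replicate 3. Over all circRNAs the counts were highest without that library too. Of 4693 then tested, 125 were higher and 58 lower in DP than in PP. From DP to N 617 were higher and 622 lower, and from PP to N 847 and 791. Without any other single library, 490 to 679 of all circRNAs were higher and 491 to 683 lower in N than in PP. Among the listed genes, without PP replicate 1, PP replicate 2 or N replicate 3, 10, 8 and 10 were higher in N than in PP, without N replicate 2 or N replicate 3 12 and 9 were lower, and without any 1 DP library or N replicate 3 7 were lower in N than in DP. Over all circRNAs the number lower in N than in DP was 348, 323 and 348 without DP replicates 1, 2 and 3. It was 298 without N replicate 3, against 432 with all libraries.

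Libraries that carry the same replicate number did not deviate together (mean r of -0.04, where different numbers gave 0.03), and not every library was closest to its own number. Whether libraries of one number came from the same sort or litter is not given in the sources used here, and this check cannot exclude it. With the replicate number as a block 0 were called from PP to DP, 0 higher and 12 lower from DP to N, and 14 higher and 13 lower from PP to N, and 3 genes were lower in N than in PP through 1 circRNA each. The share over all circRNAs is not given for this fit, so these counts are not set against the whole table. With the block the 7 Ezh2 rings with intron 2 were at 0.10, 0.10, 0.032, 0.035, 0.017, 0.051 and 0.037 on the log2 scale from PP to DP, and CiCo_mm9_circ_004389 of Arid1a at -0.0046 from DP to N.

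Of the log2 FCs of named circRNAs under these alternatives 86 turned sign, 0 of which had been called with all libraries, and 21 were past the threshold after turning, all of Ezh2 and Phf21a. The cause was not tested. Another 1672 kept their sign and their side of the threshold, 59 were newly past it and 76 no longer were. Without PP replicate 3 and N replicate 1, the 7 Ezh2 rings with intron 2 were at 0.56, 0.75, 0.80, 0.80, 1.05, 1.16 and 1.16 from PP to DP, and at 0.098, 0.28, 0.40, 0.40, 0.69, 0.84 and 0.82 from PP to N, where CiCo_mm9_circ_005476 was at 0.0088. Phf21a CiCo_mm9_circ_003909 was at 1.04 (PP to DP) and 0.79 (PP to N), CiCo_mm9_circ_003908 at 0.90 and 0.61, and CiCo_mm9_circ_003910 at -0.12 (DP to N). Baz2b CiCo_mm9_circ_003816 was at -0.0036, Chd2 CiCo_mm9_circ_005977 at 0.12, Suz12 CiCo_mm9_circ_001105 at -0.029, Dnmt3a CiCo_mm9_circ_001347 at 0.087 and Dnmt1 CiCo_mm9_circ_006521 at 0.036 from PP to DP, and Arid1a CiCo_mm9_circ_004391 at 0.10 from DP to N. Scaling by total counts put the 7 Ezh2 rings at 0.25, 0.25, 0.14, 0.15, 0.022, 0.018 and 0.0057 from PP to DP, and CiCo_mm9_circ_003910, CiCo_mm9_circ_004389 and Jarid2 CiCo_mm9_circ_001617 at -0.047, -0.33 and -0.0901 from DP to N. DESeq2 put CiCo_mm9_circ_003909 at 0.0062 and the minimum of 10 counts put CiCo_mm9_circ_004389 at -0.073 from DP to N, and without a filter CiCo_mm9_circ_005470 was at 0.034 from PP to DP.

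Leaving out single libraries, the log2 FCs from PP to DP of the 7 Ezh2 rings with intron 2 reached from -0.24 to 0.56, -0.40 to 0.74, -0.57 to 0.80, -0.56 to 0.80, -0.81 to 1.05, -0.85 to 1.16 and -0.86 to 1.15, and that of CiCo_mm9_circ_005468 from -0.74 to 0.95. From PP to N, 6 of these rings (without CiCo_mm9_circ_005470) reached from -0.97 to 0.18, -1.06 to 0.32, -1.05 to 0.32, -1.13 to 0.72, -1.16 to 0.85 and -1.18 to 0.84, CiCo_mm9_circ_005468 from -1.88 to 0.35 and CiCo_mm9_circ_005476 from -0.58 to 0.0072. The highest values of the rings with intron 2 came without PP replicate 3, as did those of Phf21a from PP. There CiCo_mm9_circ_003909 reached from -1.40 to 1.05 (PP to DP) and -1.46 to 0.96 (PP to N), and CiCo_mm9_circ_003908 from -1.40 to 0.90 and -1.54 to 0.75. From DP to N, CiCo_mm9_circ_003910, CiCo_mm9_circ_003909 and CiCo_mm9_circ_003908 reached from -0.10 to 1.09, -0.23 to 0.20 and -0.27 to 0.10, Arid1a CiCo_mm9_circ_004391 and CiCo_mm9_circ_004389 from -0.33 to 0.11 and -0.20 to 0.15, and Jarid2 CiCo_mm9_circ_001617 from -0.0216 to 0.29. From PP to DP, Baz2b CiCo_mm9_circ_003816 reached from -0.0038 to 0.49, Baz1b CiCo_mm9_circ_004927 from -0.30 to 0.30, Chd2 CiCo_mm9_circ_005977 from -0.26 to 0.13, Suz12 CiCo_mm9_circ_001105 and CiCo_mm9_circ_001106 from -0.0396 to 0.32 and -0.52 to 0.055, Dnmt3a CiCo_mm9_circ_001347 from -0.44 to 0.077, and Dnmt1 CiCo_mm9_circ_006521 from -1.03 to 0.032.

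With 3 libraries per group and a median of 12 to 60 counts per ring and library, small changes were not detectable.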
